A study of Saccharomyces cerevisiae with 312 samples.

Results

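The strains described here carry alterations in 58 genes for ribosome assembly factors of budding yeast, the proteins that act on pre-ribosomes and are absent from the finished ribosome. Members were taken by gene symbol, the array features of a gene were averaged, and a gene counted as measured where a feature had values on at least 80% of arrays. This left 40 of the 58 genes, among 4125 measured strains in all. The study crossed 154 query mutations into a pool of barcoded mutant strains (genetic interaction mapping), grew the double mutants together and compared each strain's barcode level with that in a reference population. The series held 312 arrays of 304 screens, and 140 queries had at least 2 screens.

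Of the query mutations 139 were deletions (DEL), 11 were DAMP alleles, which destabilise a transcript, and 4 were TETO2 alleles, which put a gene under a repressible promoter. The reference was a mix of many deletions on 252 arrays and a single deletion, YEL068C, on 60. Query and reference populations alike were haploid and derived from BY4742/BY4741, were kept on both antibiotics that select the double mutants, and grew for 18 generations. The labels do not give the allele of each pool strain. Many of the 58 genes are essential, so their strains need not be deletions. Per the labels Cy3 carried the query and Cy5 the reference population. The sign and log base of the deposited ratio are not stated. Negative values are read here, on a log2 scale, as a strain depleted from the query population relative to its reference, because strains linked to the query gene were low on all but 17 arrays. Those 17 arrays were turned, and no member was called in a query that holds one. They enter the fit of every strain: with all arrays as deposited 68 lower and 74 higher calls were made, against 76 and 77, and RRB1 in TRM1 (adjusted p 0.0762), RRP8 in OCA5 (adjusted p 0.0525) and MAK21 in CSM4 (adjusted p 0.588) were among those lost.

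Ribosome assembly starts in the nucleolus, where box C/D small nucleolar ribonucleoproteins (snoRNPs) modify and fold the nascent pre-rRNA and the small subunit processome assembles on it. The pre-60S and pre-40S particles then part, lose assembly factors step by step, and are exported and finished in the cytoplasm. The nuclear exosome with its nuclease Rrp6, and the TRAMP complex that marks RNAs for it, trim pre-rRNA and degrade defective precursors.

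Of the 18 genes that were not measured, 17 had their best feature on under 25% of arrays. They included NOP1, ENP1, LTV1, NOP7, LOC1 and REI1. NOP12 stood just outside the limit at 79.2% of arrays and RRP8 just inside it at 80.5%. Of the measured genes 31 had at least 2 features, which correlated across arrays with a median r of 0.740 (0.312 to 0.974). Nothing in the labels tells if repeat screens came from independent cultures. The p-values therefore cover the scatter among these samples alone, pooled over queries, which may be technical. Between the screens of a query the r over all strains ran, among 15 queries described below, from 0.0368 for NOP58 to 0.834 for RPL9A.

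Most assembly factor strains kept close to the array median in most queries, and a few moved often and in both directions. A strain was called lower or higher in a query where limma's adjusted p over all strain and query pairs was under 0.05 and the mean log2 ratio was at least 1 from 0. Of 5248 pairs of an assembly factor strain and a query, 76 were lower (1.45%, against a background of 2.33% of all 547925 pairs) and 77 higher (1.47%, against 1.21%). These shares are near the background and are no result about the members. Of the 153 calls 150 had all screens on the same side of 0, and 118 had every screen past 1. The exceptions with screens on both sides were ARX1 in SNR37, UTP22 in RPL12B and MAK21 in CSM4. The SD over queries of a strain had a median of 0.315 among the members and 0.339 among all strains.

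**Figure D1:**
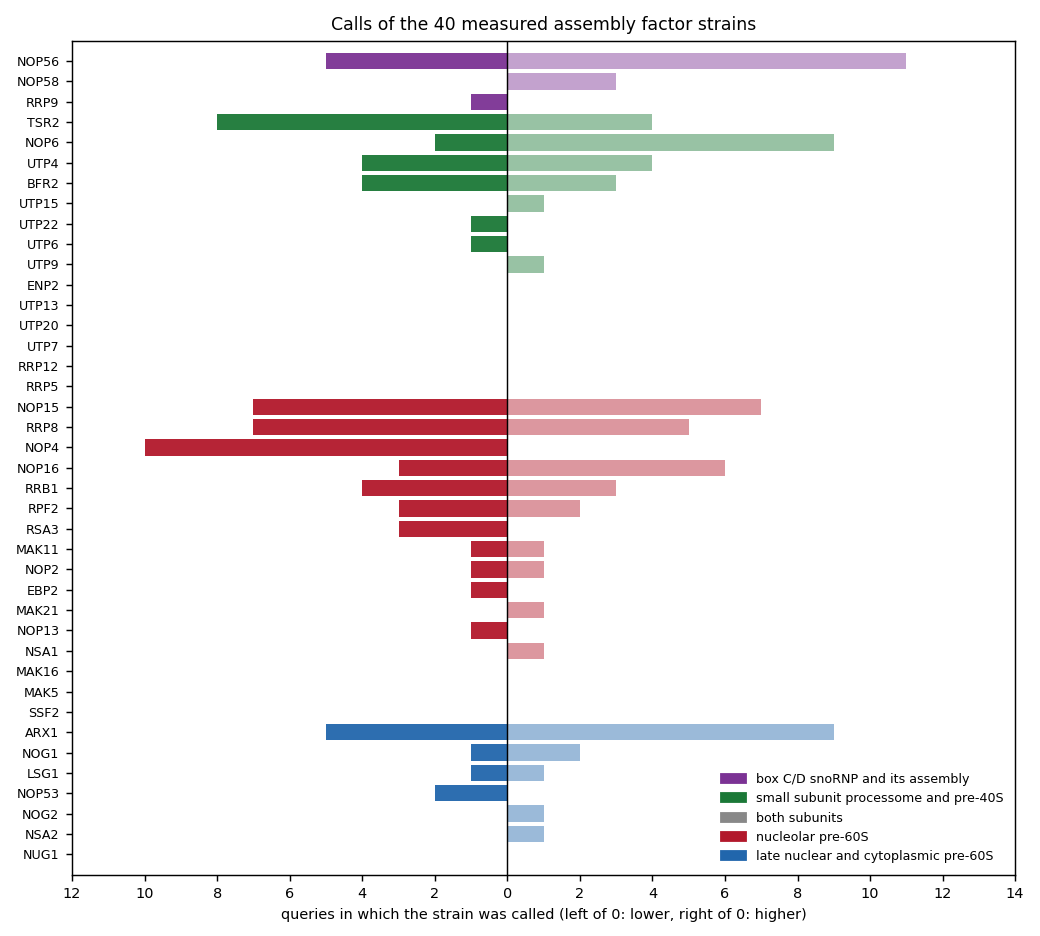
Number of queries in which each of the 40 measured strains was called lower (bars to the left, darker) or higher (bars to the right, lighter), grouped by role from top to bottom and sorted by calls within a role. The 7 strains with at least 10 calls, NOP56, TSR2, NOP6, NOP15, RRP8, NOP4 and ARX1, hold 89 of the 153 calls, and 10 strains have none.

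The strains with 10 or more calls numbered 7 of 40, a share close to the 17.4% of all strains with as many. These were NOP56 with 5 lower and 11 higher, ARX1 with 5 and 9, NOP15 with 7 and 7, RRP8 with 7 and 5, TSR2 with 8 and 4, NOP6 with 2 and 9, and NOP4 with 10 and 0. At the other end, 10 of the 40 strains (25%) were called in no query, against 31.7% of all strains. They were UTP7, UTP13, UTP20 and ENP2 of the small subunit processome, the RRP5 and RRP12 strains, whose proteins act on both subunits, MAK5, MAK16 and SSF2 of nucleolar pre-60S particles, and NUG1, a GTPase of later pre-60S particles. The SD over queries was at most 0.234 in these 10 strains and at least 0.655 in the 7 with most calls.

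By role, the 3 measured box C/D strains had 6 lower and 14 higher calls in 381 pairs (1.57% and 3.67%, against 2.33% and 1.21% of all pairs), and 11 of the 14 were of NOP56. The 12 small subunit strains had 20 and 22 calls in 1596 pairs (1.25% and 1.38%). The 16 strains of nucleolar pre-60S factors had 41 lower and 27 higher calls in 2066 pairs (1.98% and 1.31%), and the 7 of late nuclear and cytoplasmic pre-60S factors had 9 and 14 in 940 (0.957% and 1.49%). The 2 strains that act on both subunits had none. Strains within 100 genes of a query were left out. Of the 153 calls 17 lay on the query's chromosome, 5 of them under 200 genes away.

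Box C/D snoRNP proteins are taken first. Nop56 and Nop58 form the core of each box C/D particle together with the methyltransferase Nop1, and the 3 genes were also queries, each as a DAMP allele. The NOP56 and NOP58 strains were higher in populations that carried a DAMP allele of a partner. The NOP56 strain stood at 2.49 and 3.13 in the NOP1 query (mean 2.81 ± 0.45 SD, n = 2 screens, limma adjusted p 9.07e-07). The NOP58 strain stood at 2.76 and 2.32 in the NOP56 query (2.54 ± 0.31, adjusted p 3.98e-15). In the NOP1 query NOP58 stood at 1.10 and 1.34 (1.22 ± 0.17, adjusted p 0.000336). All 6 of these screen values lay above 1. NOP58 in NOP1 fell short of the size limit with the reference pool as a block (0.97) and with quantile normalization (0.74). In these queries 4.51% (NOP1) and 4.79% (NOP56) of all strains were called higher. The NOP56 strain in the NOP58 query, at 1.30 and 1.40, did not pass (adjusted p 0.0652). In the NOP1 query the 18 strains within 10 genes of NOP56 had a median of 0.02 and a highest value of 3.31. Near NOP58 the highest value was 0.98 in NOP1 and 0.95 in NOP56. The part of position in these values was not tested.

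Over the queries for snoRNP proteins (NOP1, NOP56, NOP58, CBF5, NHP2 and SHQ1, the last 3 acting in H/ACA particles), NOP58 averaged 0.96 ± 0.96 (SD, n = 5 queries), against 0.05 ± 0.27 over 120 other queries. The difference of 0.91 passed limma's test (adjusted p 1.95e-05), and 20 of 4119 strains (0.486%) were called higher in this class. The query means were 2.54 in NOP56, 1.22 in NOP1, 0.42 in SHQ1, 0.31 in NHP2 and 0.31 in CBF5, so the H/ACA queries lay well below the box C/D ones. The call stayed without any 1 of the 5 queries. With medians over queries in place of means the difference was 0.36, under the size limit of 0.5 for classes. RRP9, a U3-specific snoRNP protein, was lower in 1 query, TRM1 (-1.93 and -0.87, adjusted p 2.93e-07, background 1.59%).

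**Figure D2:**
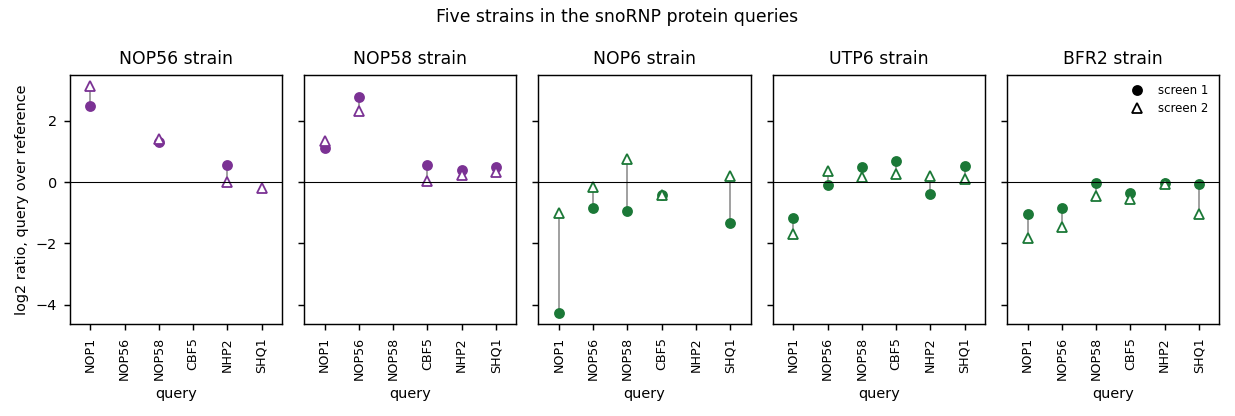
Log2 ratio in each screen of 5 strains (panels) in the 6 snoRNP protein queries (horizontal axis). Filled circles are screen 1 and open triangles screen 2, joined by a line, and queries within 100 genes of the strain are left out. NOP56 and NOP58 lie above 1 in the queries of their box C/D partners, while NOP6, UTP6 and BFR2 lie between -4.28 and -0.996 in the NOP1 query.

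A group of 3 small subunit strains went the other way in the NOP1 query. The NOP6 strain, whose protein binds pre-rRNA in early small subunit precursors, stood at -4.28 and -0.996 (-2.64 ± 2.32, adjusted p 1.5e-08). Both screens were low but differed widely, and NOP6 and NOP1 lie on the same chromosome, 189 genes apart. UTP6, a scaffold protein of the processome, stood at -1.18 and -1.70 (adjusted p 1.72e-07). BFR2, another processome protein, stood at -1.06 and -1.81 in NOP1 (adjusted p 0.0027) and at -0.84 and -1.46 in NOP56 (adjusted p 0.0278), where 2.59% of all strains were lower. The NOP56 value missed the threshold with quantile normalization (adjusted p 0.0974). In NOP1 3 of 39 tested members were lower, where 0.977% of all strains were. All 3 lie on chromosome IV, as does NOP1 itself, each more than 100 genes from it. No test of position was made for these values. NOP6 was also lower over the snoRNP protein queries as a class, at -0.85 ± 1.02 in 5 queries and 0.05 ± 0.62 in 130 others (adjusted p 0.0483, 1.07% of strains called lower). Without NOP1 the difference was -0.45 (adjusted p 0.505), it also missed the threshold without NOP56, CBF5 or SHQ1 (adjusted p 0.0669 to 0.0805), and a block for the reference pool gave an adjusted p of 0.119.

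A set of 3 small subunit strains was higher over the queries of large subunit proteins. The queries were RPL12B, RPL24B, RPL37A, RPL37B, RPL7B and RPL9A. UTP4, a subunit of the complex that first binds nascent pre-rRNA, averaged 1.23 ± 0.55 over 5 of them and -0.06 ± 0.66 over 130 others (difference 1.29, adjusted p 0.00885). BFR2 averaged 0.73 ± 0.51 over 6, against -0.18 ± 0.56 over 130 others (0.91, adjusted p 0.0175). NOP6 averaged 0.96 ± 0.60 over 6, against -0.03 ± 0.63 over 129 others (0.98, adjusted p 0.0287). In this class 3 of 40 members were higher, and 0.461% of all strains were. All 3 strains lie on chromosome IV, as do the query genes RPL12B and RPL37B. What position adds to these values was not tested. UTP4 and NOP6 were above 0 in every large subunit query measured, and BFR2 was below 0 in RPL7B. The groups overlapped in all 3 strains. Each call was lost without RPL37A or without RPL9A, where the lowest adjusted p was 0.106. BFR2 and NOP6 also missed the threshold without RPL24B (adjusted p 0.0501 and 0.086) or RPL37B (adjusted p 0.111 and 0.129). The differences were larger with the reference pool as a block (1.58, 1.08 and 1.26).

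**Figure D3:**
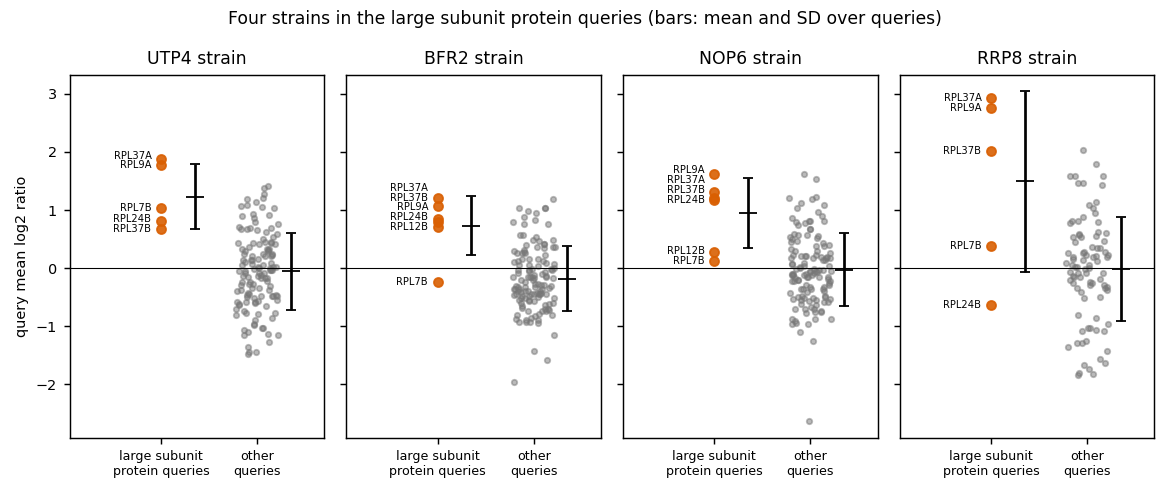
Query mean log2 ratio of 4 strains (panels) in the large subunit protein queries (left, named) and in all other tested queries (right), with bars for the mean and SD over queries. Among the large subunit queries RPL37A gives the highest value for UTP4, BFR2 and RRP8, and RPL9A for NOP6. The RPL9A value of BFR2 is 0.85, below RPL37A and RPL37B. The RRP8 values spread from -0.63 to 2.93 over the large subunit queries.

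Single queries of the class carried these values. RPL37A had 6 members higher of 35 (1.98% of all strains), RPL9A 5 of 38 (1.97%) and RPL37B 4 of 39 (1.57%). In each 0 members were lower, where 3.98%, 2.57% and 0.862% of all strains were. UTP4 stood at 1.81 and 1.95 in RPL37A and at 1.65 and 1.89 in RPL9A. NOP6 stood at 1.34 and 1.30 in RPL37A, at 1.79 and 1.44 in RPL9A, at 1.54 and 0.89 in RPL37B and at 0.84 and 1.52 in RPL24B (0.604% of all strains higher). Each of these was called, but NOP6 in RPL37B was not with quantile normalization (adjusted p 0.0677) and NOP6 in RPL24B was not with all arrays as deposited (adjusted p 0.0552). In the RPL7B query no member was called in either direction, where 0.101% of all strains were lower and 0.757% higher.

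TSR2, the chaperone that delivers the small subunit protein Rps26, followed the same queries and had the largest SD over queries of any member, 1.17 over 115 queries. It stood at 2.80 and 2.41 in RPL37A (adjusted p 0.00385) and at 2.63 and 2.07 in RPL9A (adjusted p 0.0122), and at 2.53 and 1.67 in the small subunit query RPS28A (adjusted p 0.0336, 3.46% of all strains higher). TSR2 and RPL37A share a chromosome and lie 259 genes apart. Over the large subunit queries as a class the TSR2 difference of 1.09 did not pass (adjusted p 0.394), and the SD over the 6 queries was 1.61. Between large and small subunit protein queries none of the 40 members differed by limma's test, with 3 at an unadjusted p under 0.05, and 6 of 4116 strains were called in all (0.0972% lower and 0.0486% higher).

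TSR2 was lower in queries outside the ribosome. It stood at -2.80 and -4.13 in UBP6, the deubiquitinase of the proteasome (adjusted p 3.2e-05), and at -5.48 and -1.21 in RPN4, the transcription factor for proteasome genes (adjusted p 6.97e-05, background 14.6%). It stood at -4.22 and -2.26 in OCA5 (adjusted p 0.000126, background 5.64%). In UBP6 12% of all strains were lower, so a lower call there is common. With quantile normalization TSR2 stood at -1.21 in UBP6 (adjusted p 0.224) and at -0.92 in RPN4 (adjusted p 0.436), and neither was called, nor was TSR2 in RPS28A (adjusted p 0.0872). Over 12 proteasome queries TSR2 averaged -0.89 ± 1.28, against 0.03 ± 1.12 over 103 others (adjusted p 0.0347, background 9.65%). The NOP6 strain went up in the same class, with 0.60 ± 0.54 over 11 queries and -0.04 ± 0.64 over 124 others (adjusted p 0.00948, background 1.48%). The TSR2 call was lost without SEM1, RPN4 or UBP6 (adjusted p 0.0655, 0.132 and 0.141), and that of NOP6 was kept without any 1 query. With the reference pool as a block these differences were -0.72 and 0.40, and neither passed (adjusted p 0.228 and 0.229).

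Several nucleolar pre-60S strains were lower in the RRP6 query, and a few strains far lower in TRF5. RRP6, the exosome nuclease, was a TETO2 query, and TRF5, the poly(A) polymerase of a TRAMP complex, was a deletion. In RRP6 10 of 37 tested members were lower (27.0%), where 9.56% of all strains were, and 0 were higher (1.94% of all strains). Of the 10, 7 were among 14 nucleolar pre-60S strains, 2 among 7 late pre-60S strains, and 1 (BFR2) among 12 small subunit strains. The median over the 37 members was -0.33, and over all strains 0.04. The nucleolar pre-60S strains had a median of -1.51, with 11 of 14 below 0, and the small subunit strains had a median of -0.12, with 7 of 12 below 0. No test of the list was made. With quantile normalization 4 of the 37 passed, namely RPF2, RSA3, NOP53 and NOP2, at -1.32 to -1.03. Not called were MAK11, EBP2, NOG1 and BFR2, which fell to between -0.91 and -0.88. NOP4 and NOP16, at -1.03 and -1.12 (adjusted p 0.201 and 0.159), were not called either. RSA3 did not pass when the reference pool was a block (-1.58, adjusted p 0.0544).

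RPF2, which with Rrs1 brings the 5S ribonucleoprotein into pre-60S particles, stood at -3.99 and -2.10 in RRP6 (-3.05 ± 1.34, adjusted p 2.52e-19). RSA3, which works with the helicase Dbp6 in early pre-60S particles, stood at -5.11 and -1.29 (-3.20 ± 2.70, adjusted p 2.24e-12). NOP4, an RNA-binding protein of early pre-60S particles, stood at -3.89 and -1.33 (adjusted p 5.53e-06). In 9 of the 10 strains the first screen, run against the single deletion reference, was the lower, and its SD over all strains was 1.38, against 0.913 in the other. NOP16 was nearly level, at -2.49 and -2.57.

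The other nucleolar strains called in RRP6 were NOP2, the 25S rRNA cytosine methyltransferase, at -3.12 and -1.74, EBP2 at -2.48 and -1.61, and MAK11 at -2.54 and -1.56. NOP53, the late pre-60S factor that brings the exosome helicase Mtr4 to the particle, stood at -3.55 and -2.10 (-2.82 ± 1.02, adjusted p 3.3e-24). NOG1, a GTPase of pre-60S particles, stood at -2.48 and -1.53. Every screen value of the 10 called strains lay below -1. In the screen whose reference pool also served at least 3 other queries, all 10 strains lay 1.53 to 2.50 below the median of those queries. A strain within 10 genes was lower than the member for NOP53 (GIP3, -3.11), NOP4 (ARL3, -3.29) and MAK11 (SWD2, -3.84). The same held for EBP2 (STE3, -3.03) and NOG1 (BRO1, -3.28). For RSA3, RPF2, NOP16, NOP2 and BFR2 the lowest such strain stood at -1.42 to -0.31. The part of position in these values was not tested. NOP56, NOP15 and RRP8 had 1 screen of RRP6 each, at -3.21, -4.09 and -1.17, and were not tested.

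**Figure D4:**
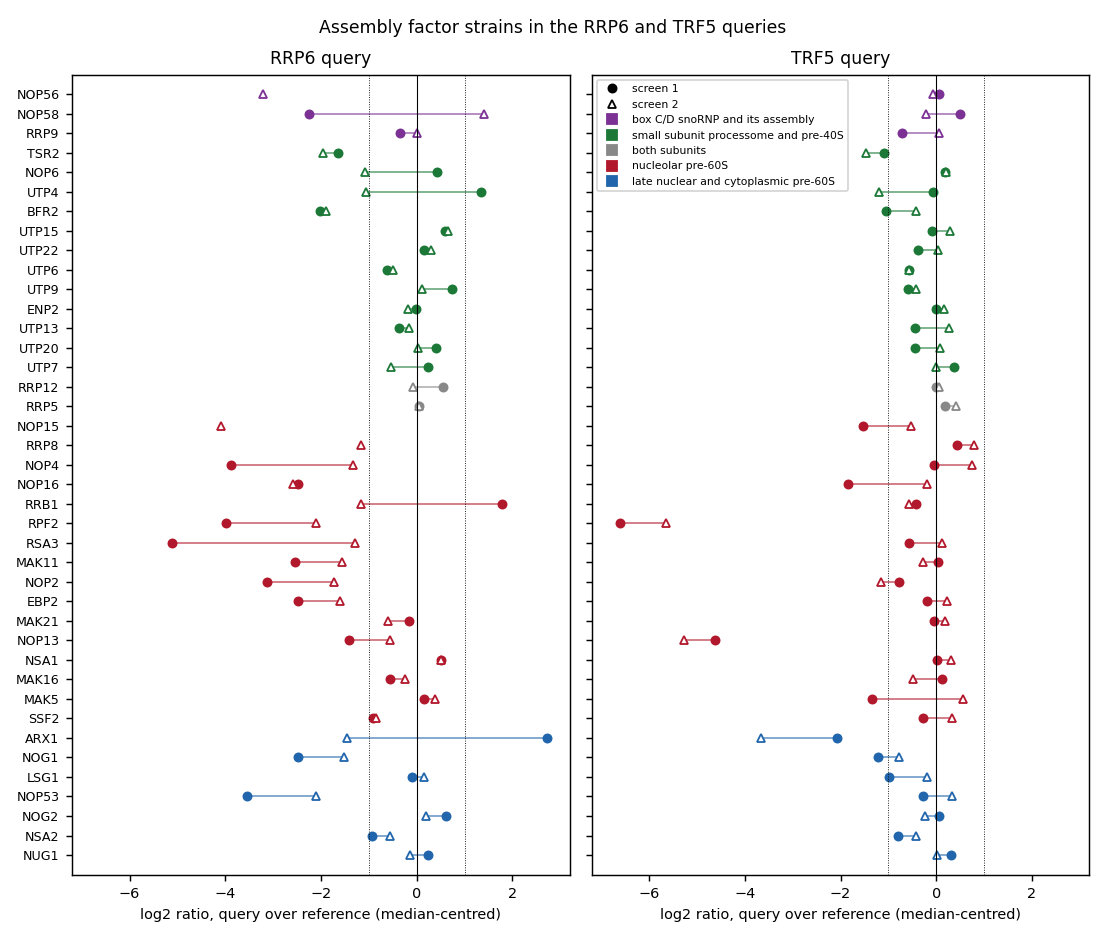
Log2 ratio of every measured assembly factor strain in each screen of the RRP6 query (left) and the TRF5 query (right), with roles by colour, circles for screen 1 and triangles for screen 2. Dotted lines mark 1 and -1. In RRP6 most nucleolar pre-60S strains (red) lie below 0, and in TRF5 RPF2 and NOP13 stand alone below -4.

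In TRF5 3 of 40 members were lower (7.5%), where 0.675% of all strains were. RPF2 stood at -6.62 and -5.65 (-6.13 ± 0.69, adjusted p 3.29e-47), the lowest mean of any member in a tested query. NOP13, a nucleolar RNA-binding protein, stood at -4.62 and -5.28 (-4.95 ± 0.46, adjusted p 4.67e-47). It lies 121 genes from TRF5 on the same chromosome, and the 14 strains within 10 genes of NOP13 had a median of 0.04 and a lowest value of -0.90. ARX1, an export factor of the pre-60S particle, stood at -2.07 and -3.67 (-2.87 ± 1.13, adjusted p 2.17e-05). The 3 strains stood out although the 2 TRF5 screens agreed little over all strains (r 0.294). NOP53 stood at -0.27 and 0.33 in TRF5 and was not called.

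Over the nuclear RNA processing queries (RAT1, RAI1, RNT1, RRP6, TRF5, REX2, REX3, SSU72 and PCF11), 4 of 40 members were lower, against 1.89% of all strains, and 0 higher, against 0.8%. RPF2 averaged -0.99 ± 2.21 over 9 queries, against 0.06 ± 0.47 over 125 others (adjusted p 0.00287). NOP13 averaged -0.76 ± 1.74 over 8, against -0.01 ± 0.20 over 128 others (adjusted p 0.00117). MAK11 averaged -0.30 ± 0.70 over 9, against 0.20 ± 0.32 over 120 others (adjusted p 0.00421), and RSA3 -0.38 ± 1.35 over 9, against 0.18 ± 0.43 over 125 others (adjusted p 0.0459). Single queries decided these values. Without TRF5 the differences were -0.15 for NOP13 (adjusted p 0.284) and -0.41 for RPF2 (adjusted p 0.159). Without RRP6 they were -0.29 for MAK11 (adjusted p 0.166), -0.21 for RSA3 (adjusted p 0.57) and -0.80 for RPF2 (adjusted p 0.0595). Without RNT1 the difference of RSA3 was -0.38 (adjusted p 0.293) and that of MAK11 -0.48, under the size limit, and without REX3 that of RSA3 was -0.56 (adjusted p 0.0591). With quantile normalization neither MAK11 (-0.30) nor RSA3 (-0.25) was called, and with all arrays as deposited RSA3 was not (-0.52).

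Besides RPF2, 3 strains were lower in RRP6 and in a further query of this class. RSA3 stood at -1.59 and -2.11 and NOP16 at -2.44 and -1.34 in RNT1, the nuclear RNase III that cuts the 3′ end of pre-rRNA (adjusted p 0.000119 and 0.000115, background 6.42%). NOP16 was lost there with quantile normalization (-1.10, adjusted p 0.17). NOP53 was lower in RAI1, the partner of the nuclear 5′ exonuclease Rat1, at -1.69 and -2.42 (-2.06 ± 0.52, adjusted p 5.41e-15, background 2.76%). The GIP3 strain, within 10 genes of NOP53 on chromosome XVI, was also low in both of its queries, at -3.11 in RRP6 and -2.09 in RAI1. The part of position in the NOP53 values was not tested. In contrast, NOP56 was higher in RAI1, at 1.60 and 2.55 (adjusted p 0.000674, background 1.71%). NOP56, NOP58 and NOP2 were higher in RAT1, where 7.82% of all strains were, and all 3 calls were lost with quantile normalization.

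RRP8, the methyltransferase that modifies an adenine of 25S rRNA, was higher in large subunit queries. It stood at 3.43 and 2.42 in RPL37A (2.93 ± 0.72, adjusted p 1.52e-05), at 3.09 and 2.44 in RPL9A (2.76 ± 0.47, adjusted p 5.23e-05) and at 2.11 and 1.93 in RPL37B (2.02 ± 0.13, adjusted p 0.0068). The 6 screens lay between 1.93 and 3.43. In RPL24B it stood at -0.95 and -0.31, and in the 1 screen of RPL12B that measured it at -2.13. As a class the difference was 1.51, just short of the threshold (adjusted p 0.0508). RRP8 was measured in 95 queries only.

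The NOP4 strain was lower in 10 queries and higher in none. It stood at -7.03 and -2.89 in CAJ1, a DnaJ-type chaperone gene (-4.96 ± 2.93, adjusted p 1.52e-17, background 4.8%), and at -2.54 and -3.24 in ADE4, a purine synthesis gene (adjusted p 3.43e-07, background 10.3%; with quantile normalization -1.21, adjusted p 0.106). Its values in CAJ1 were far apart but both low. Other lower queries were PIN4, PTC1, FKS1, OCA1, SNR37, RPN4 and EPS1, with means from -2.22 to -1.39. The ARL3 strain, within 10 genes of NOP4, was also low in ADE4 (-2.72) and PTC1 (-2.89), and SGF11 in CAJ1 (-2.34). In PIN4, FKS1 and OCA1 the lowest strain within 10 genes stood at -0.51 to -0.16. The part of position in the NOP4 values was not tested.

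All 7 lower calls of NOP15, an RNA-binding protein of nucleolar pre-60S particles, came from 13 queries that were screened with the same 2 reference pools and no other. The same pools held 4 of 5 lower calls of NOP56, all 4 of RRB1, the chaperone of the large subunit protein Rpl3, and 3 of 4 of UTP4. NOP15 had a median of -1.54 over these 13 queries and 0.18 over the other queries, and RRB1 -0.88 and 0.18. NOP56 had -1.34 and 0.27, and UTP4 -1.12 and 0.00. NOP15 reached 1.41 within the same pools (HCR1) and NOP56 2.20 (SRO9). Set against the median of the other queries of the same pools, the 18 lower calls of these 4 strains lay between -0.74 and -0.02, and none kept a size of 1. In YCL001W-A NOP15 stood at -1.47 and -2.70 and NOP56 at -1.24 and -2.64, and in OTU1 NOP15 stood at -1.60 and -2.55. These are -0.65, -0.74 and -0.64 against their pools. Of all strains 1.88% were lower in YCL001W-A and 1.56% in OTU1.

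Outside those pools 1 lower call and 7 higher calls failed the same comparison, and 127 of all 153 kept a size of 1. NOP15 was higher in TRM1, which methylates tRNA, at 2.89 and 2.43 (2.66 ± 0.32, adjusted p 3.11e-05), or 2.61 against its pools, where 4.6% of all strains were higher. NOP16 followed it there, at 2.68 and 2.29 (2.49 ± 0.28, adjusted p 1.15e-07). NOP56 was higher in the proteasome queries PRE9, at 3.09 and 2.09, and RPN10, at 3.91 and 1.16 (adjusted p 7.9e-06 and 1.35e-05, 3.03% of all strains higher in RPN10), or 1.68 and 1.62 against their pools. PRE9 had 6 of 38 members higher, where 2.87% of all strains were. Against their pools NOP6 stood at 0.56 there, under the size limit, and RRB1 and NOP15 at 1.01 and 1.02. ARX1, NOP16 and NOP56 stood at 1.41 to 1.68.

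Among the late pre-60S strains, LSG1, the cytoplasmic GTPase that releases the export adaptor Nmd3, stood at -2.30 and -2.02 in RPL24B, one of 2 copies of a protein that joins the large subunit in the cytoplasm (-2.16 ± 0.20, adjusted p 4.37e-11). Only 0.529% of strains were lower in that query, and the 2 screens lay close together. LSG1 and RPL24B lie 270 genes apart on chromosome VII, and the 8 strains measured within 10 genes of LSG1 had a median of 0.17 and a lowest value of -1.25. ARX1 in the same query stood at 0.24 and 1.08 and was not called.

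ARX1 was lower in 5 queries and higher in 9. The lower ones besides TRF5 were RPN4, at -3.15 and -1.87, 133 genes away on the same chromosome and lost with quantile normalization (-0.80, adjusted p 0.453), MRN1, an RNA-binding protein gene, at -2.73 and -2.17 (background 0.63%), CAJ1 at -1.96 and -2.04, and SNR37, where screens of -5.23 and 0.41 disagreed. The highest was GIM4, a prefoldin subunit, at 2.10 and 2.86 (2.48 ± 0.54, adjusted p 0.000412, background 4.33%). It was also higher in NOP56 (2.07 and 1.57), NOP6 (1.78 and 1.91, background 0.869%) and RPS28A (2.42 and 1.78). With quantile normalization ARX1 was not called in CAJ1 (adjusted p 0.1) or NOP56 (adjusted p 0.198).

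Of 36 pairs listed because both genes act in 1 complex or in neighbouring steps, 24 had a measured strain and 23 were tested. The list was drawn up with earlier results of these data known, so its counts test nothing about such pairs. Over all strain and query pairs 2.33% were lower and 1.21% higher. NOP53 in RRP6 and NOP6 in NOP1 were lower. NOP56 and NOP58 in NOP1, NOP58 in NOP56, and RRP8 in RPL37A and RPL37B were higher, and 16 pairs were not called. Among the last were the NOG1 strain in NOP1, NOP56, NOP58 and NOP6, with means from -0.14 to 0.32. The NOP58 strain in the NOP6 query stood at -0.35 and -0.50 (adjusted p 0.5).

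Profiles over queries were compared by Pearson's r, as a description over queries that share reference pools. The median r of 758 member pairs was 0.0655, and 38 pairs (5.01%) were above 0.5. The share among pairs of other strains is not given here. The most alike were NOP15 and RRB1 (r 0.765 over 116 queries), RPF2 and NOP13 (0.761 over 130), NOP6 and BFR2 (0.685 over 131), NOP56 and UTP4 (0.685 over 117), and NOP16 and NSA2 (0.684 over 128). NOP6 and BFR2 share chromosome IV, and NOP16 and NSA2 share chromosome V. The value of RPF2 and NOP13 rested on TRF5 and RRP6, and was 0.246 without them. The other 4 stayed between 0.601 and 0.743 when the 2 most extreme queries of the first-named strain were left out. Without the 13 queries of the shared pools NOP15 and RRB1 had an r of 0.658, and NOP56 and UTP4 0.609.

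**Figure D5:**
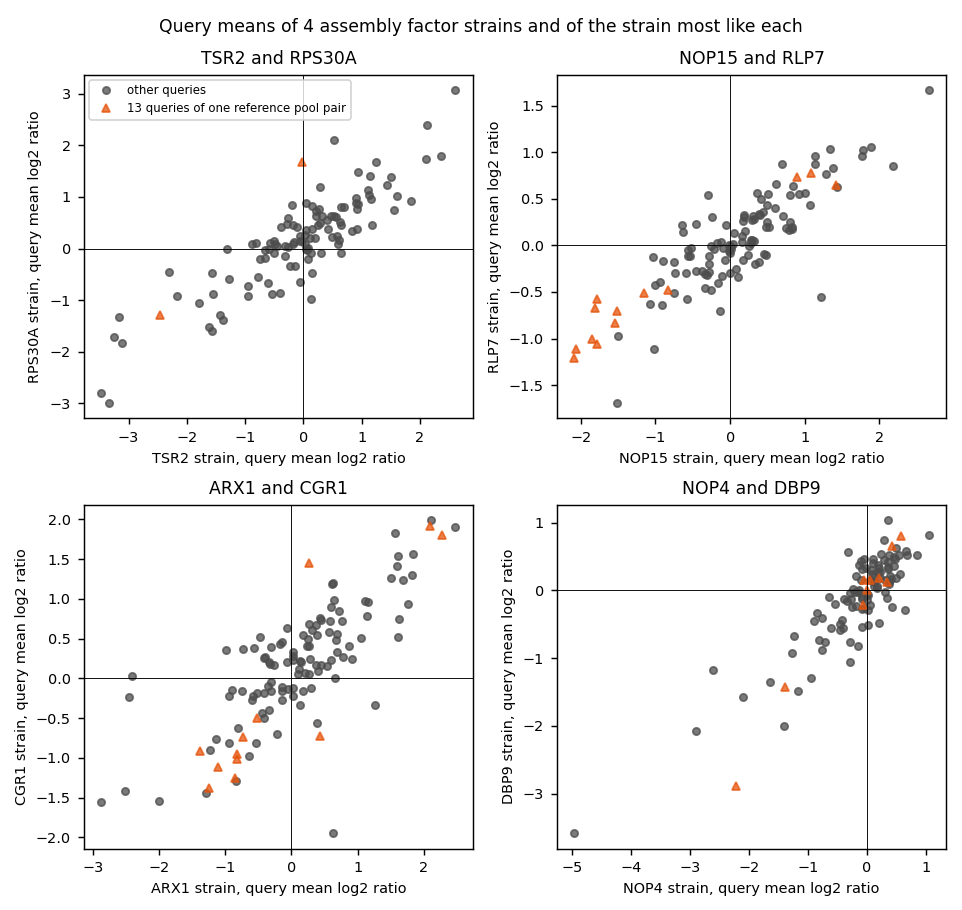
Query mean log2 ratios of 4 assembly factor strains (horizontal axes) and of the strain most like each among all strains (vertical axes), 1 point per query. Triangles are the 13 queries that share a pair of reference pools. The r is 0.868 for TSR2 and RPS30A, 0.864 for NOP15 and RLP7, 0.773 for ARX1 and CGR1 and 0.882 for NOP4 and DBP9.

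Among all 4125 strains, the single strains most like the often called members were other ribosomal protein or assembly factor genes in 6 of 7 cases. How often this holds for other strains is not given here. TSR2 was most like RPS30A (r 0.868 over 112 queries), a small subunit protein gene, and next RPS10B (0.854) and RPS0A (0.841). NOP15 was most like RLP7 (0.864 over 121) and RLP24 (0.817), both large subunit assembly factors. ARX1 was most like CGR1 (0.773 over 121), a pre-60S processing factor, and RPL24B (0.748). RRP8 was most like RPS0A (0.688 over 81), and NOP56 most like the UTP4 strain. NOP4 was most like DBP9 (0.882 over 109), a large subunit helicase, and NOP6 most like IRC13 (0.694 over 123), ahead of BFR2. The next strains after DBP9 for NOP4 were YDR248C (0.843), GAL10 (0.834), YSH1 (0.830) and YOR296W (0.827), which are on none of the ribosome lists, and their values lay close to that of DBP9. The lower ranks and NOP4 were added after the values were seen. TSR2 and RPS30A share chromosome XII, and NOP15 and RLP7 chromosome XIV. Leaving out 2 extreme queries left r at 0.843 for TSR2, 0.846 for NOP15, 0.753 for ARX1 and 0.836 for NOP4.

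Assembly factor genes that are not members were counted in the same way, against 2.33% lower and 1.21% higher over all pairs. Of 53 other small subunit factors 36 were measured, with 67 lower (1.43%) and 46 higher calls (0.981%). Of 49 other large subunit factors 32 were measured, with 79 lower (1.88%) and 51 higher (1.22%). DBP7, a large subunit helicase, had the most calls, with 25 lower and 4 higher, followed by RLP24 with 8 and 13 and CGR1 with 7 and 11. Of 6 proteins of H/ACA particles 4 were measured, with 9 lower (1.65%) and 4 higher calls (0.735%). In RRP6 7 of 31 other large subunit strains, 3 of 30 other small subunit strains and 2 of 4 H/ACA strains were lower, against 9.56% of all strains. The large subunit strains included DBP7 at -4.04 and -4.41, RLP7 at -5.22 and -2.58, and YTM1 at -4.05 and -2.56. The small subunit strains included KRR1, as low at -3.94 and -3.07. NOP8, a large subunit factor, was higher in RRP6, at 0.85 and 1.15 (background 1.94%). In TRF5 3 of 30 other large subunit strains were lower, RLP24 at -2.99 and -2.03, CGR1 at -1.88 and -1.24 and ALB1 at -1.77 and -0.81. None of 35 other small subunit strains and none of the 4 H/ACA strains was, against 0.675% of all strains.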

How the data were processed

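The deposited values are 1 ratio per feature and array, taken as log2 ratios of Cy3 over Cy5. The sources used here give no log base, normalization, scale, centring or sign. Ratios hide the signal of each channel, and precision is limited by the number of screens. Features with 1 gene symbol and values on at least 80% of arrays were kept (8632) and averaged per gene (4125 strains). Arrays were centred on their median (deposited medians -0.19 to 0.48), and 17 arrays of 2 pools, where neighbours of the query gene (25 genes either way) had a positive median, were multiplied by -1. Arrays of 1 screen were averaged. The R64 annotation gave names and gene order only.

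In limma 3.58.1 (R 4.3.3) every strain had 1 mean per query tested against 0 (two-sided) and Benjamini-Hochberg adjustment over 547925 pairs. Strains within 100 genes of the query and pairs with under 2 screens were left out. Query classes were compared in limma on query means, with the adjustment over strains and a minimum difference of 0.5. The fits were also run on simulated data with independent noise and a fixed SD per strain. The simulation held no reference pool effects and no difference in spread between arrays, so it cannot check for these. Values are means ± SD over screens unless stated.

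The members, gene lists, query classes and listed pairs were chosen with earlier results of these data known. Named by rule were the 20 lowest and 10 highest called pairs with screens on the same side (at most 3 per member and 4 per query), the 6 members with most calls, members called in a class, called listed pairs, and the 5 most alike member pairs. The deviations of same-numbered replicates had a mean r of 0.0194 over 8515 pairs of queries. The r was over 0.1 in 24.6% of these pairs and below 0 in 45.9%. Replicate numbers were not used to pair screens in the main fit, but a low mean r cannot show that no screens were paired. Alternatives were the sign as deposited, quantile normalization, reference pool or replicate number as a block, other feature and linkage limits, feature medians, weights, and single replicates left out. For query classes they also included medians over queries and the queries with 1 screen. Leaving out each class query, and setting calls against other queries of the same pools, were chosen after seeing the data. No sequences are shown.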

Additional observations from a re-analysis of the deposited data

Results flagged for a closer look

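In 4 of the query class comparisons 1 query stood far from the others of its class by Dixon's criterion, which chance meets in about 1 in 20 groups. NOP6 stood at -2.64 in the NOP1 query, below the other 4 snoRNP protein queries. BFR2 stood at -0.24 in RPL7B, below the other 5 large subunit queries. Among the nuclear RNA processing queries MAK11 stood at -2.05 in RRP6 and NOP13 at -4.95 in TRF5, each below all others.

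The 14 queries with 1 screen were in no test, and 4 of their 535 member values lay more than 2 from 0. RSA3 stood at -6.12 in YCR016W. RRP8 stood at -2.41 in SNR68, a box C/D snoRNA gene. In MTQ2, which methylates a translation release factor, NOP4 stood at 2.93 and RRP12 at 3.05. RRP12 had no call in the tested queries.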

How the results depend on the processing

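Of the 76 lower and 77 higher member calls, 44 lower calls were left with features on at least 95% of arrays, where 35 members were measured, and 129 higher calls were made with the reference pool as a block. Leaving out replicate 1 or 2 gave 36 to 41 lower and 25 to 38 higher calls, with 5 to 14 members called in query classes against 11. Medians over queries kept 5 of these 11 class calls and lost 6. Lost were NOP58 and NOP6 in the snoRNP protein queries and the 4 members called in the nuclear RNA processing queries. Quantile normalization gave 4 members lower in RRP6 against 10, and 7 called in classes; over all strains it gave 10843 lower and 5307 higher calls against 12773 and 6630. The replicate block gave 69 lower, 89 higher, 10 in RRP6 and 12 in classes. Deviations of same-numbered screens had a mean r of 0.0194, with 24.6% of query pairs over 0.1. Of 1109 repeats of 93 single values 893 kept their call, 214 lost it and 2 turned: with 1 replicate left out ARX1 stood at -2.41 to 0.41 in SNR37 and UTP22 at -2.08 to 0.051 in RPL12B. In alternatives chosen after seeing the data, 62 lower and 56 higher calls had all screens past 1, and 57 and 70 were past 1 against other queries of their reference pools. The causes were not tested. With mostly 2 screens per query, small differences were not detectable.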

Other observations

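The TRM1 query, named after its values were seen, held the most member calls among 7 queries for tRNA-modifying enzymes or their partner. In TRM1 5 of 35 members were higher, where 4.6% of all strains were: besides NOP15 and NOP16 these were RPF2, at 2.35 and 1.87 (adjusted p 1.22e-10), NSA2, at 1.46 and 1.31 (adjusted p 1.81e-10), and RRB1, at 1.54 and 0.94 (adjusted p 0.0475). RRP9 was lower there. With quantile normalization RRB1 (0.76, adjusted p 0.315) and NSA2 (0.86, under the size limit) were not called. RPF2 had its highest value in TRM1 and its lowest in TRF5. In TRM9 NOP56 stood at 2.10 and 1.54 and NOP6 at 1.36 and 1.03 (2 of 40 members, against 1.75% of all strains), and neither was called with quantile normalization. In TRM112, which encodes a partner of several methyltransferases, NOP6 stood at 2.03 and 1.21 (1 of 37, against 2.15%), and LSG1 stood at 1.12 and 0.97 in MOD5 (1 of 39, against 2.60%). These single calls are near the background. TRM11, PUS1 and RIT1 had no member called, where 0.459% to 1.78% of all strains were lower and 0.0501% to 1.55% higher.

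TSR2 and RRP8, whose profiles had an r of 0.679 over 85 queries, shared lower calls in OCA2, OCA5 and NPR3. TSR2 stood at -4.58 and -1.75, -4.22 and -2.26, and -3.21 and -3.01 there, and RRP8 at -2.52 and -1.15, -2.14 and -1.19, and -2.14 and -1.33. Of all strains 3.59%, 5.64% and 11.7% were lower in these queries, against 2 of 34, 2 of 34 and 2 of 40 members, so these counts are no result about the members. With quantile normalization the RRP8 calls in all 3 queries (adjusted p 0.131, 0.259 and 0.552) and the TSR2 call in NPR3 (adjusted p 0.291) were lost. NOP16 was lower in all 4 screens of SXM1, a karyopherin gene, from -2.34 to -1.14 (adjusted p 1.43e-06).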
